A study of Arabidopsis thaliana with 24 samples.

Results

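The epidermal phyB line MLB and the wild type Col-0, both grown in red light, were compared at the splicing events that were listed for each of them against its own rrc1 mutant. MLB and Col-0 are the control lines of the study. Events were taken where the same event identifier, start and end stood in the table of MLB and EMS27 and in the table of Col-0 and rrc1-689. This gave 136 shared events in 112 genes, of 517 events in either table, with 325 events in the first table and 328 in the second. MLB carries phytochrome B (phyB) under the ML1 promoter, which is active in the epidermis, in the phyB-9 mutant, as the deposited information sheet says. Col-0 carries its own, unmutated PHYB. Both lines are in the Col-0 background and neither is an rrc1 mutant, while EMS27 is an rrc1 mutant of MLB and rrc1-689 is an rrc1 mutant of Col-0. Whole seedlings of either line were kept cold for 2 days, given white light for 6 h and grown for 60 h under red light (19 µmol per m2 and s), with 3 RNA sequencing libraries a line. The series holds 24 libraries in all. Whether the libraries of a line stem from different cultures is not in the labels. The p-values therefore set a difference between the lines against a spread between libraries that may be only technical variation.

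phyB is a red-light receptor that enters the nucleus in its active form and acts on transcription factors and on pre-mRNA splicing. RRC1 is a splicing-related protein that is needed for phyB signalling in red light. Introns are cut out between a donor site that starts with GT and an acceptor site that ends with AG. A retained intron, a second acceptor site or a skipped exon therefore gives a different transcript from the same gene. In plants such events are common in clock genes and in genes of splicing factors, where they often give transcripts that make no full-length protein.

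The level of an event is the percentage of its reads that carry the included form, either reads over an intron's boundaries or reads over the junctions of an included exon part, and the remainder are reads over the exclusion junction. The sites of 6 events are shown because the comparisons below turn on them, 4 in genes of the clock and splicing lists and 2 with the lowest p-values. They were read from the RefSeq TAIR10.1 genome in the direction of the gene, 5′ to 3′, and capitals mark the GT and the AG of the intron.
JMJ30 event E011, donor, chr3:7277448-7277463, plus strand: tcagGTaactacggtg
JMJ30 event E011, acceptor of the included form, chr3:7277575-7277604: ttctttgatgttcttgcataataaAGcctg
TOM2A event E009, donor, chr1:11691354-11691369, minus strand: ctccGTaagtttccat
TOM2A event E009, acceptor of the included form, chr1:11691144-11691173: ttaattggtgtatctctcattctcAGctct
TOM2A event E009, acceptor of the excluded form, chr1:11690953-11690982: tgaaatttagttttttgttcttttAGgata
TOC1 intron I001, donor, chr5:24675669-24675684, plus strand: caagGTatgatttata
TOC1 intron I001, acceptor, chr5:24675964-24675993: ttgtttttattctttttggaatgcAGtgac
U2AF65A intron E005, donor, chr4:17294692-17294707, minus strand: tttgGTaagagacctc
U2AF65A intron E005, acceptor, chr4:17294600-17294629: gttttcttggttgtgctgttttacAGcctt
RCF1 intron E008, donor, chr1:7288840-7288855, plus strand: taatGTaagtcgagaa
RCF1 intron E008, acceptor, chr1:7288974-7289003: gatctttagtttctgtcttttaacAGgaaa
HINT 2 intron Io002, donor, chr1:11123392-11123407, minus strand: caagGTgagtcagttt
HINT 2 intron Io002, acceptor, chr1:11123143-11123172: tatcttcctctgaaccgccgtcgcAGgctg
In JMJ30 and TOM2A the included and the excluded form use the same donor, and the included form takes an acceptor nearer to it. The included stretch is 151 bases in JMJ30 and 191 bases in TOM2A. The other 4 events are whole introns, of 317 bases in TOC1, 100 bases in U2AF65A, 156 bases in RCF1 and 257 bases in HINT 2.

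Over the shared events, an MLB library held 11024 to 11985 reads and a Col-0 library 15316 to 15895. These sums cover shared events only and are not library depths. The median event had 54 to 57 reads in an MLB library and 75 to 80 in a Col-0 library, so levels of MLB rest on fewer reads. Counts of the 2 lines stood in 2 separate deposited tables. In 4 events a junction had 0 reads in MLB library 1 or Col-0 library 2, or in both, where the other libraries let 10 or more be expected. These were 1 event of APX1, 2 of AT1G61150 and 1 of AT2G30600. Of the shared events, 134 in 110 genes had the same junctions in both tables and were tested. The 2 left out were AT1G47278 E003, for which 1 table names a junction that the other does not, and AT3G66654 E007, whose exclusion reads cover 2 junctions in 1 table and 1 in the other. Neither PHYB nor RRC1 had a shared event, so neither genotype could be checked, and none of 21 matched markers of epidermis, stomata, root hairs, vasculature or mesophyll had one.

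In red light the levels of the shared events were close in MLB and Col-0 in percentage points, and no event passed the test. The median level over the 134 events was 6.41% in MLB and 6.04% in Col-0. The lower quartile was 1.96% in MLB and 2.28% in Col-0. Events were listed for differing from the mutants, and in 96 both controls lay below both mutants. Such low levels leave little room for differences in points, so closeness on this scale follows in part from the selection. The median absolute difference was 1.19 percentage points, 87 events differed by under 2 points and the largest difference was 14.3 points. MLB had the higher mean in 72 events, the lower mean in 59, and both means were equal in 3. Each event was tested with limma on logit values, two-sided and with Benjamini-Hochberg adjustment. Of the 134 events, 0 (0%) passed an adjusted p of 0.05, and 6 (4.48%) had an unadjusted p below it, 3 (2.24%) with MLB higher and 3 (2.24%) with MLB lower. The edgeR quasi-likelihood test on the inclusion and exclusion counts also called 0, with 7 unadjusted. The smallest adjusted p in limma was 0.305, for TOM2A.

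**Figure D1:**
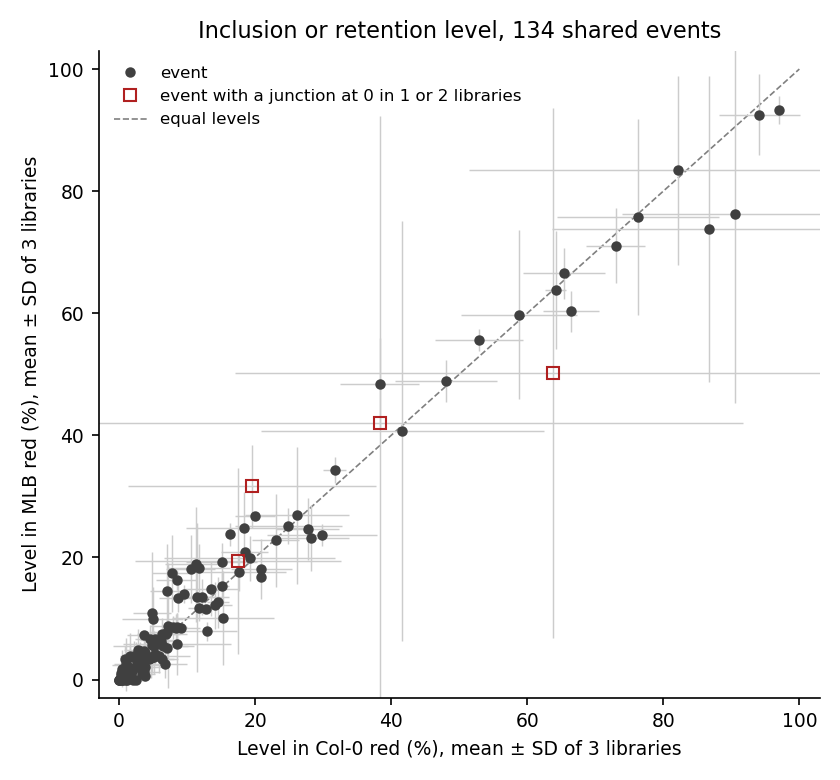
Mean level (percent) of 134 shared events in MLB red (vertical axis) and in Col-0 red (horizontal axis), with bars of 1 SD over 3 libraries a line; red squares are the 4 events with a junction at 0 reads in 1 or 2 libraries, and the dashed line marks equal levels. Points lie along the line of equal levels, and the events farthest from it have wide bars.

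This lack of calls does not show that the lines were alike. The 95% confidence interval of the logit difference had a median half-width of 0.89, and it lay within −1 to 1 for 49 events and within −2 to 2 for 102. The 49 include the events of ATX2 and CAS1, and the 102 also that of emb2410. These events had no included read in either line. Their intervals come from the reads added and from depth, and do not limit how far the lines could differ. In data simulated at these depths, a true logit shift of 1 was called in 40.2% of cases and a shift of 2 in 81.8%. Over 20 simulations, 600 events had a shift of 1, 600 a shift of 2 and 1480 none. The spread between libraries was fixed and the same for all events. Many changed events ease the adjustment, and some events here vary more, so these percentages may overstate what could be called. Events with few reads could thus differ severalfold in odds without a call.

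The mutants show the scale on which these events move, since the authors listed events by the difference between each mutant and its control. The absolute difference had a median of 17.4 points between EMS27 and MLB and of 14.2 points between rrc1-689 and Col-0, which follows from how events were chosen and is no finding. Both control means lay below both mutant means in 96 events, above them in 37, and among them in 1. In 20 events the library means of MLB and Col-0 differed by more than 5 points, with MLB higher in 12 and lower in 8. The authors also used a minimum of 5 points for listing. Theirs applied to fractions of reads summed over replicates and came with an FDR limit, so the 2 measures are not alike. The libraries compared here had entered the authors' selection.

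**Figure D2:**
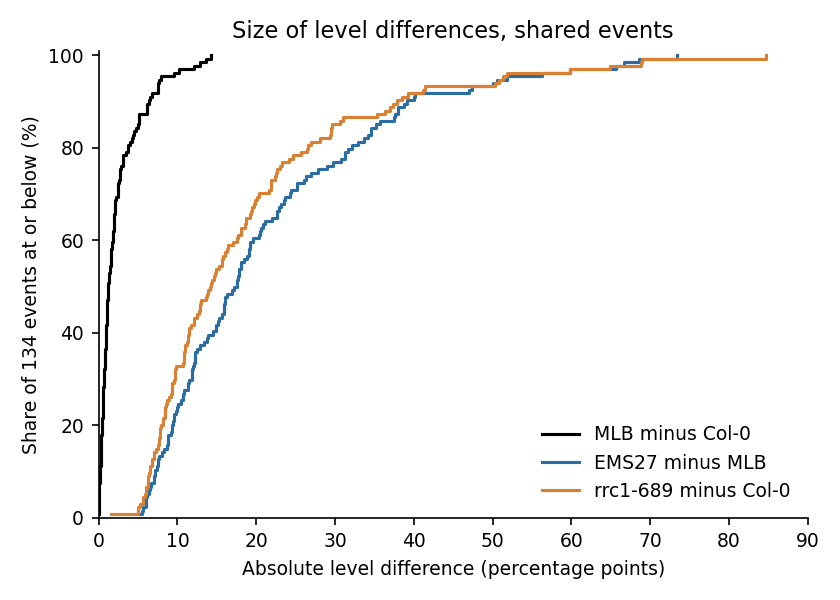
Cumulative share (percent) of 134 shared events by absolute level difference (percentage points) for MLB minus Col-0 (black), EMS27 minus MLB (blue) and rrc1-689 minus Col-0 (orange). The black curve reaches its end at 14.3 points, while the mutant curves have medians of 17.4 and 14.2 points; the selection of events used the mutant differences.

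By kind of event, the differences were small in the median. Introns spliced in all annotated isoforms numbered 51, of which 22 were higher in MLB, 27 lower and 2 equal, with a median difference of −0.050 points. Introns split by an annotated exon were higher in MLB in 22 of 34 cases, with a median of 0.42 points. Introns annotated as retained were higher in MLB in 11 of 17 cases, with a median difference of 1.66 points and median levels of 20.9% in MLB and 16.3% in Col-0. Alternative 3′ splice sites were higher in 13 of 23 events and lower in 9 (median 0.25 points). Of the 7 cassette exons 4 were higher (median 1.10 points), and both alternative 5′ splice sites were lower in MLB. None of the 6 kinds held a called event, and over all events the median difference was 0.20 points.

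**Figure D3:**
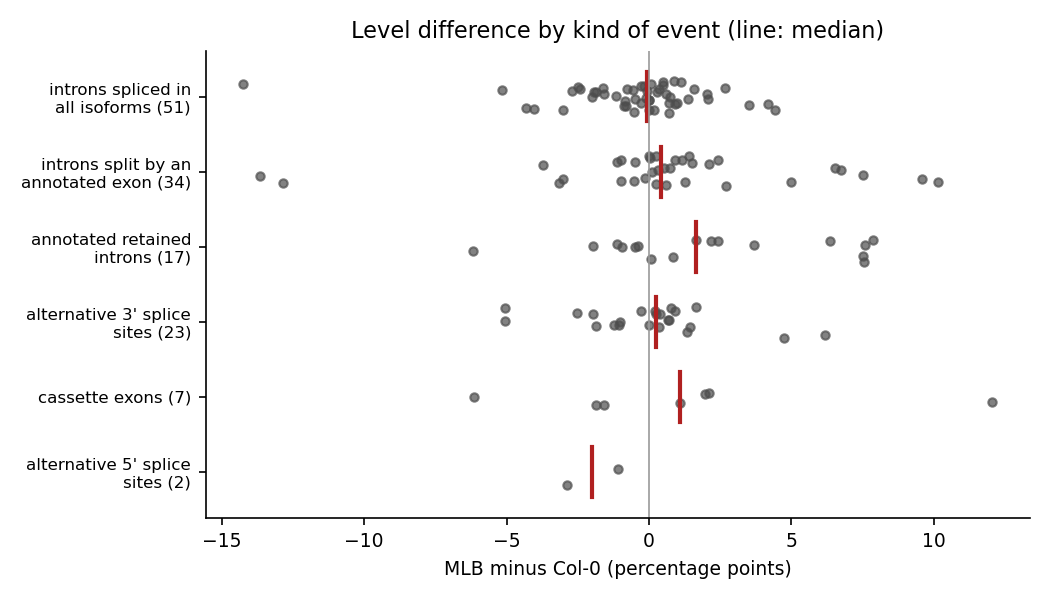
Level difference, MLB minus Col-0 (percentage points), of each of 134 shared events (points), by kind of event, with the number of events in brackets and the median as a red line. Medians run from −1.99 points for 2 alternative 5′ splice sites to 1.66 points for 17 annotated retained introns.

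Of 28 matched core clock genes, TOC1 and JMJ30 had shared events, and 0 of their 3 events passed the test. TOC1 encodes a pseudo-response regulator of the evening phase. The level of its intron I001 (TAIR10, chromosome 5, 24675673 to 24675989) was 0%, 1.30% and 1.205% in the MLB libraries and 2.38%, 2.04% and 5.51% in the Col-0 libraries. The MLB values all lay below the Col-0 values, but they rest on 2 intron boundary reads in MLB and 14 in Col-0. Donor and acceptor boundary reads were 0 and 2 in MLB and 1 and 13 in Col-0. With nearly all reads over the acceptor, the level cannot be read as retention of the whole intron. The logit difference was −1.07 ± 0.49 (SE, 95% interval −2.28 to 0.14, limma adjusted p = 0.678, n = 3 each). It was −0.60 without MLB library 1 and −1.73 with 0.1 instead of 0.5 reads added. The level averaged 7.19% in EMS27 and 12.9% in rrc1-689.

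JMJ30, which the files call JMJD5, encodes a histone demethylase that works in the clock. Its event E011 (chromosome 3, 7277601 to 7277751) is the alternative acceptor shown above, and the included form was 7.89%, 9.38% and 6.38% in MLB and 14.7%, 16.3% and 7.91% in Col-0. The lines overlapped, with 2 Col-0 libraries above and 1 within the MLB range. The difference of −5.07 points had a logit of −0.41 ± 0.28 (SE, 95% interval −1.11 to 0.29, limma adjusted p = 0.843), which became −0.25 without Col-0 library 2 and −0.65 without Col-0 library 3. In MLB a total of 9 reads carried this form, against 50 in Col-0. The level of the intron around it, event Io004, was 15.7%, 14.7% and 10.2% in MLB and 16.5%, 11.4% and 8.57% in Col-0. The lines did not separate. Its donor and acceptor boundary reads were 12 and 21 in MLB and 27 and 65 in Col-0. The included form of E011 also gives reads over this acceptor boundary, so the level of Io004 is not retention alone. Both events use the same exclusion junction. In the mutants the included form of E011 averaged 81.3% in EMS27 and 81.9% in rrc1-689, so either control is far from its mutant.

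The light signalling list gave 1 gene with a shared event of 46 matched. BBX27, a B-box protein, had an intron I002 retained at 3.35%, 6.57% and 6.74% in MLB and 3.50%, 5.26% and 10.5% in Col-0. These ranges overlapped, with a logit of −0.089 ± 0.378 (SE).

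Splicing factor genes gave 4 events in 4 of 50 matched genes, none of them called, with a median difference of 1.04 points. U2AF65A binds the pyrimidine-rich stretch before acceptor sites and helps to define them. Its annotated retained intron E005 (chromosome 4, 17294604 to 17294703) was retained at 20.8%, 21.5% and 20.5% in MLB and 14.5%, 19.9% and 21.0% in Col-0. The libraries overlapped. With a median of 159 reads in MLB and 189 in Col-0 this intron was covered better than most events, and the logit difference was 0.17 (95% interval −0.34 to 0.67), or 0.030 without Col-0 library 1 and 0.25 without Col-0 library 3. Retention of this intron averaged 1.32% in EMS27 and 2.72% in rrc1-689.

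RCF1, listed as AT1G20920, encodes an RNA helicase of splicing that acts in cold responses. Its retained intron E008 (chromosome 1, 7288844 to 7288999) stood at 17.9%, 16.4% and 14.6% in MLB and 5.88%, 11.8% and 7.69% in Col-0. All MLB libraries lay above all Col-0 libraries, and the difference of 7.87 points was the largest between lines that did not overlap. It did not pass the adjusted test (logit 0.76 ± 0.25 SE, limma unadjusted p = 0.0238, adjusted p = 0.678), and 37 intron reads in MLB and 24 in Col-0 stood behind it. Donor and acceptor boundary reads were uneven, with 28 and 9 in MLB and 19 and 5 in Col-0. The level may therefore not be retention of the whole intron alone. No intron read was counted in either mutant. The SR-like gene SRL1 had its intron E017 retained at 55.0%, 74.1% and 62.3% in MLB and 65.8%, 62.7% and 64.0% in Col-0, with the wider spread in MLB.

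Among 39 matched flowering regulators 4 had a shared event, and none was called. ELF9, an RNA-binding protein that is also on the splicing list, had its intron I011 at 0%, 4.48% and 1.54% in MLB and 6.98%, 2.29% and 2.36% in Col-0, from 4 and 12 intron reads. FLM, the MADS-box floral repressor that the files call MAF1, held 7.48%, 6.67% and 11.1% in MLB and 9.02%, 7.93% and 8.31% in Col-0 at event Io006. The means of FLM were 8.42% ± 2.37 in MLB and 8.42% ± 0.56 in Col-0 (SD, n = 3 each). PKL, a chromatin remodeller, had its intron I019 at 0%, 1.82% and 3.33% in MLB and 3.09%, 1.08% and 1.82% in Col-0. For ATX2, a histone methyltransferase, no read of intron I010 was found in either line, in 99 reads of MLB and 143 of Col-0, which allows up to 3.03% and 2.098% of reads. Such limits hold for counting error alone, because PCR copies of a molecule were not marked by identifiers.

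**Figure D4:**
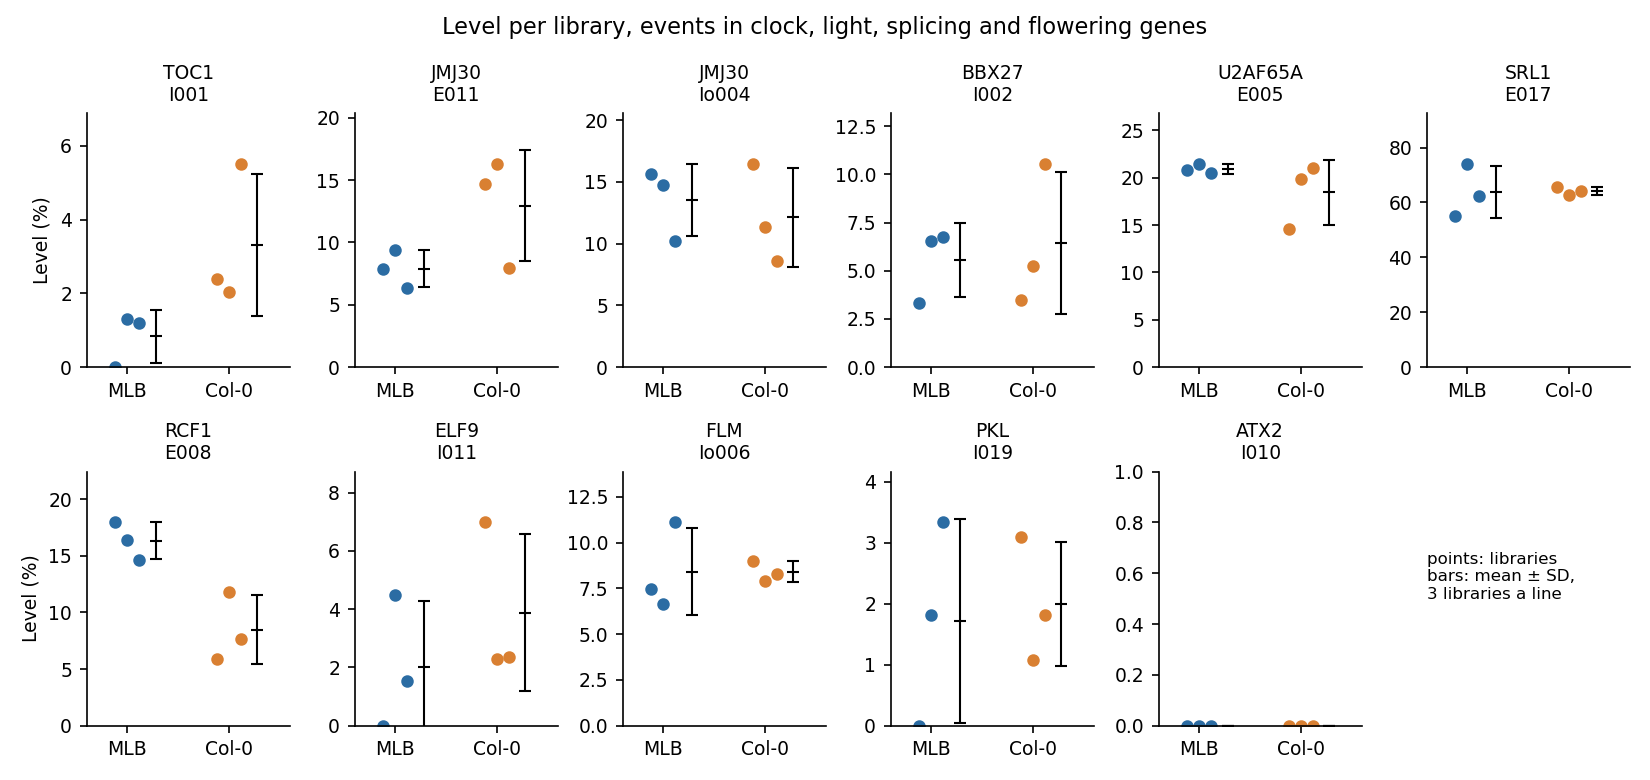
Level (percent) of 11 events in clock, light signalling, splicing factor and flowering genes in each of 3 MLB red (blue) and 3 Col-0 red (orange) libraries, with mean ± 1 SD as bars. The libraries of the lines separate at TOC1 I001 and RCF1 E008 and overlap or coincide in the others.

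The events with the largest mean differences were mostly those of few or uneven reads. The intron I008 of AT1G67300, a gene of a transporter of the major facilitator superfamily, was retained at 100%, 41.2% and 87.5% in MLB and 71.4%, 100% and 100% in Col-0, a difference of −14.3 points with a median of 15 and 16 reads. For AT3G07760 Io007 the median was 4 reads in either line, with a difference of −12.9 points. APX1 encodes an ascorbate peroxidase that removes hydrogen peroxide. Its event Io012 stood at 100%, 20.5% and 30.2% in MLB and 80.6%, 100% and 10.9% in Col-0. Its exclusion junction had 0, 33 and 22 reads in MLB and 3, 0 and 57 in Col-0. The cassette exon E012 of AT2G30600, a gene of a BTB domain protein, was included at 28.2%, 27.3% and 39.5% in MLB and 22.7%, 0% and 36% in Col-0. The 0% of Col-0 library 2 came from the junction at 0, and without this library the logit difference was 0.12 instead of 1.37.

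The other large differences were higher means in MLB. The intron Io003 of AT1G02960, annotated as a kinetochore protein gene, was at 40.0%, 54.3% and 51.1% in MLB and 39.0%, 32.1% and 43.8% in Col-0, a difference of 10.2 points. ARI5, of the ARIADNE family of ubiquitin ligases, had its event Io016 at 18.5%, 10.6% and 23.1% in MLB and 6.19%, 11.3% and 5.98% in Col-0 (9.58 points, limma unadjusted p = 0.0329, adjusted p = 0.678). MEE44 E022 was at 21.3%, 21.4% and 11.6% in MLB and 11.1%, 13.8% and 6.67% in Col-0. The libraries of the lines overlapped in each of these 3 genes.

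The 6 library values separated the lines in 14 of the 134 events (10.4%), with MLB above in 6 (4.48%) and below in 8 (5.97%). For 1 event with 3 libraries a line, the smallest p of an exact permutation test is 0.1, which separation in either direction reaches. The share of 10.4% is thus close to that expected without a difference between the lines. These events were named after their values were seen. SCPL13, of the serine carboxypeptidase-like family, had its retained intron E006 at 24%, 21.8% and 25.5% in MLB and 16.7%, 16.1% and 15.97% in Col-0, from 157 and 159 intron reads (limma unadjusted p = 0.0390, adjusted p = 0.678). The intron I006 of AT3G55020, which encodes a Rab-GAP domain protein, was at 12.7%, 13.9% and 15.6% in MLB and 10%, 9.95% and 8.83% in Col-0. In GSTU18, a glutathione transferase gene, intron I001 was retained at 16.9%, 16.5% and 16.98% in MLB and 20.8%, 21.3% and 20.4% in Col-0. GSTU18 overlaps the annotated locus AT1G10370, so its reads cannot be assigned with certainty.

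TOM2A and HINT 2 had the lowest p-values and few included reads. TOM2A encodes a membrane protein that tobamoviruses need to multiply. The acceptor of its included form had 0 reads of 58, 120 and 118 in MLB, and 2 of 109, 3 of 71 and 1 of 64 reads in Col-0. An MLB count of 0 in 296 reads allows a share of up to 1.01%, and the logit difference was −1.74 ± 0.34 (SE, limma unadjusted p = 0.00228, adjusted p = 0.305). With no included read in MLB, the size of this difference is set by the reads added. It was −3.15 with 0.1 instead of 0.5 added, the 1 alternative in which this event passed (limma adjusted p = 0.0373). Over the 18 alternatives the smallest adjusted p of any event ran from 0.0373 to 0.776. In the mutants the included form of TOM2A averaged 18.1% in EMS27 and 11.8% in rrc1-689. HINT 2, a histidine triad nucleotide-binding gene, had its intron event Io002 at 1.15%, 0.763% and 0% in MLB and 4.76%, 2.94% and 3.65% in Col-0. The level rests on 2 boundary reads in MLB and 16 in Col-0 (limma unadjusted p = 0.00979, adjusted p = 0.656). Donor and acceptor boundary reads were 0 and 2 in MLB and 2 and 14 in Col-0. The included form of its alternative acceptor event E003 also gives reads over that acceptor boundary, so the level is not retention alone.

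At AT5G36790 Io001 the level was 95.9%, 92.8% and 91.3% in MLB and 97.2%, 96.9% and 97.1% in Col-0, with 2365 and 2829 intron boundary reads. Of these, 2079 lay over the donor and 286 over the acceptor in MLB, and 2575 and 254 in Col-0. With boundaries this uneven, the level cannot be read as retention of the whole intron. A copy on chromosome 5 is 100% identical over 233 of 233 bases around this event, so these reads may come from either copy. The other separated events were AT2G30600 Io004, AT4G13495 I003 and ACR12 I011 with MLB above, and EX1 I008, CPK32 I007 and HCF107 Io007 with MLB below. Their differences ran from −4.30 points in CPK32, a calcium-dependent kinase gene, to 6.73 points in AT2G30600. AT4G13495 is a noncoding gene that overlaps other annotated loci.

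In 7 of the 134 events no included read was found in MLB while Col-0 had some, and the reverse was found in 0 events. Beside TOM2A these include AT5G08650 E005, with 0 of 977 reads in MLB and 10 of 845 in Col-0 (an MLB share of up to 0.307%). Of these 10 reads, 8 were in Col-0 library 2 and 0 in library 3. DRM3 I004 had 0 of 53 and 2 of 54. Col-0 had 1 included read each at AT4G17470 E012, AT1G80910 I002 and AT1G04910 I007, and 2 at VPS35B I007. The direction was not tested. At 3 of the 7 events MLB had more reads than Col-0 (TOM2A, AT5G08650 and AT4G17470 E012), and at the other 4 it had fewer. Another 3 events, in ATX2, emb2410 and CAS1, had no included read in either line.

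Events of a gene are not independent of each other. Of the 110 tested genes 22 had 2 tested events and 1 had 3, and 42 of the 134 events shared their exclusion junction with another event. Most such pairs join an alternative acceptor site with the intron around it, as in JMJ30, HINT 2, E13L3 and HCF107.

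The number of reads at an event, whatever their form, is a readout that the level does not use. It was compared per gene at the shared event with the most reads, relative to the other shared events. Reads were fewer in MLB at the clock gene JMJ30 and more numerous at the chloroplast antiporter gene KEA3 and the peroxisomal protease gene LON2. In edgeR's quasi-likelihood test 22 of 110 genes (20%) passed an adjusted p of 0.05, with MLB higher in 12 (10.9%) and lower in 10 (9.09%). The median log2 ratio over all 110 genes was 0.045. In these whole seedlings, fewer cells that express a gene and less RNA per cell cannot be told apart.

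The called genes with the largest ratios were read in every library as follows, in reads scaled by TMM. KEA3, a potassium and proton exchanger of the thylakoid membrane, had 89.4, 113 and 80.7 reads in MLB and 41.5, 34.1 and 35.1 in Col-0. Its log2 ratio was 1.35 ± 0.19 (SE, edgeR adjusted p = 5.9e-05). LON2, which degrades proteins in peroxisomes, had 211, 231 and 232 reads in MLB and 115, 132 and 140 in Col-0 (log2 0.80 ± 0.13 SE, edgeR adjusted p = 0.000142). All MLB libraries of these 2 genes were above all Col-0 libraries.

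ABCD2, an ABC transporter gene, had 54.5, 50.1 and 77.1 reads in MLB and 33.6, 31.5 and 20.05 in Col-0 (log2 1.09). AT3G61010, annotated as a ferritin-like family gene, had 33.7, 53.5 and 36.1 reads in MLB and 21.2, 24.7 and 14.2 in Col-0 (log2 1.04). The kinase gene STY17 followed with a log2 ratio of 0.72. TOM2A also had 0.72, but its libraries overlapped, with 67.3, 137 and 142 reads in MLB and 96.3, 60.5 and 53.5 in Col-0.

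JMJ30 had 55.7, 44.4 and 65.04 reads in MLB and 122, 121 and 127 in Col-0. The lines were far apart for this gene (log2 −1.16 ± 0.17 SE, edgeR adjusted p = 5.9e-05). The level of the same event, Io004, was 13.5% ± 2.91 in MLB and 12.1% ± 4.00 in Col-0 (SD, n = 3 each) and was not called. E13L3, a gene of the beta-1,3-glucanase-like family, had 46.4, 75.1 and 68.7 reads in MLB and 140, 140 and 126 in Col-0 (log2 −1.09 ± 0.17 SE, edgeR adjusted p = 0.000141). ARI5 had 18.6, 29.6 and 28.9 reads in MLB and 53.0, 50.2 and 51.8 in Col-0, a log2 ratio of −1.01. The retromer gene VPS35B (−0.76), the tryptophan synthesis gene PAI1 (−0.57) and AT5G61820 (−0.52) were lower by smaller ratios. VPS35B lost its call in 8 of 12 alternatives and PAI1 in 6 of 12. PAI1 has a 99.6% identical copy on chromosome 5, so its reads are uncertain.

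The other called genes with more reads in MLB were AT5G08650 (log2 0.65), HBP5 (0.64), AT1G18660 (0.60), AT1G22330 (0.49), GSTU18 (0.40) and TLP2 (0.38). Those with fewer were AT1G05805 (−0.49), ACR12 (−0.44), AT5G01650 (−0.43) and SEC61 BETA (−0.39). None of these 22 genes had a called level at the event counted, which says nothing particular to them, since 0 of all 134 events (0%) were called. The count of 22 depended on the test and on single libraries, since DESeq2 called 8, the fit without MLB library 3 called 7, and that without Col-0 library 2 called 14. KEA3, LON2, JMJ30, E13L3 and ARI5 were called in all 12 alternatives. TOM2A lost its call in 6 of them, and AT3G61010, STY17 and AT5G61820 in 3 each. Among the genes with the largest ratios, STY17, TOM2A, VPS35B, PAI1 and AT5G61820 were not called by DESeq2. With 8 genes called by DESeq2 in all, most genes of the smaller ratios listed here were not called by it either.

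**Figure D5:**
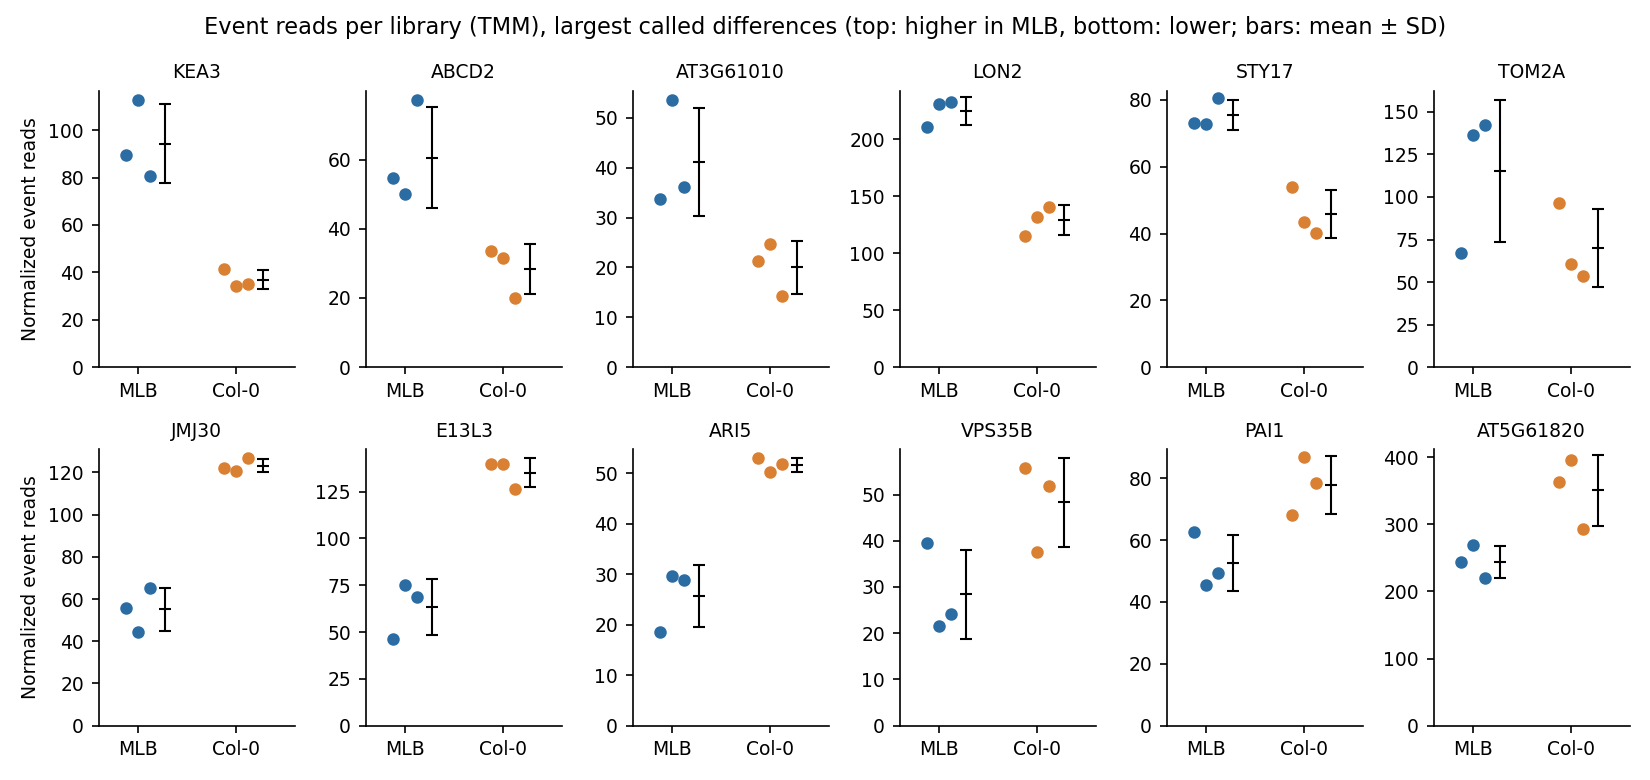
Event reads (scaled by TMM) per library in 3 MLB red (blue) and 3 Col-0 red (orange) libraries, with mean ± 1 SD as bars, for the 6 called genes with the largest ratios in each direction (top row higher in MLB, bottom row lower). KEA3, LON2, JMJ30 and E13L3 separate with wide gaps, while TOM2A and VPS35B overlap.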

How the data were processed

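Reads were aligned with TopHat2 2.1.1 to TAIR10, per the submitters' processing notes, and splicing was compared with ASpli 1.9, per the deposited information sheet. The authors deposited raw read counts of inclusion junctions or boundaries (J1, J2) and of the exclusion junction (J3) per event and library, and listed events whose inclusion fraction differed by more than 0.05 with a bin FDR below 0.05. The sources used here do not say whether counting used strand. The level was computed as J1 + J2 over J1 + J2 + J3, with J3 counted doubly where inclusion has 2 junctions or the event is a skipped exon, which recovered 544 of 544 deposited fractions of the shared events within 0.0001. Deposited columns without a sample numbered 0.

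R 4.3.3 and limma 3.58.1 were used to test the logit of levels after adding 0.5 reads, over MLB and Col-0 red libraries only, with a threshold of 0.05 on the adjusted p. Event reads were tested with edgeR 4.0.16 (TMM, quasi-likelihood), and DESeq2 1.42.0 was an alternative. The SE of a log2 ratio is its size over the square root of the F statistic. No filter on low counts was used. Both tests were tested on simulated data. The level test called 2.09% of unchanged events over 134. The event read test recovered 35% and 90.8% of genes changed by log2 0.5 and 1 over 110 genes, calling 0.75% of unchanged ones. The share of changed events and genes and the spread between libraries were set beforehand and may differ from these data. All replicate pairs differed beyond sampling noise (chi-square test), so each library counted once.

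Events were named where called, for the 8 largest level differences and for genes of 4 lists, and genes for the 6 largest called ratios in each direction. Members and lists were chosen with earlier results of these data known. The separated events, the sequences shown, the smaller called ratios and the 2 exclusions were chosen after values were seen. Of 112 genes, 111 had the same start and end in TAIR10.1, and 117 of 118 exclusion junctions read there had GT and AG ends. The sequence of 1 acceptor site is not reported here.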

Additional observations from a re-analysis of the deposited data

How the results depend on the processing

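The level comparison was run under 18 alternatives and the event read comparison under 12. The number of called events stayed at 0 in every alternative but 1, in which 0.1 reads were added and 1 event (TOM2A E009) was called. In the other alternatives the smallest adjusted p was 0.0776, with 12 red-light libraries in the fit, where 14 events had an unadjusted p below 0.05. Leaving out single libraries gave 0 called events each time and 7 to 19 called genes for event reads, all 7 of the lowest count being among the 22. DESeq2 called 8 genes, all of them among the 22. Settings chosen after seeing the data, exclusion junction reads alone and no genes with a junction at 0, called 23 each, 22 of them shared. Leaving out the 4 events with such a junction gave 0 called of 130, and testing all 136 shared events gave 0 as well.

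Same-numbered libraries did not deviate together (correlations of −0.222 to 0.0561), so no pairing of the lines by number was seen. Counting error enters these deviations, so a weak shared effect of same-numbered libraries could be missed. The fit with a replicate block called 0 events and 17 genes, and these genes were all among the 22.

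Of 18 named events, the logit difference changed sign in 7 when a library was left out: AT1G67300 I008 ran from −1.87 to 0.079, APX1 Io012 from −2.22 to 0.53, JMJ30 Io004 from −0.0076 to 0.36, BBX27 I002 from −0.35 to 0.23, PKL I019 from −0.41 to 0.36, FLM Io006 from −0.18 to 0.096 and SRL1 E017 from −0.23 to 0.19. PKL also turned to 0.10 with 1 read added, and SRL1 to 0.00081 with 0.1 added. Their levels therefore have no settled direction. Leaving out a library moved the logit difference by over 1.5 times in 14 of the 18 events, these 7 included. Named genes lost their call in 30 of 144 gene and alternative pairs, with no change of direction. Depth limits events of few reads most.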

Other observations

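Reads over the donor and the acceptor boundary of an intron were not equally frequent in either line. In the 51 introns spliced in all isoforms, the donor boundary held 44.5% of 2224 boundary reads in MLB and 35.8% of 2626 in Col-0. Without RCD1 I007, which moved these shares most, they were 48.1% in MLB and 39.97% in Col-0. In the introns split by an annotated exon, the donor share was 73.1% in MLB and 73.6% in Col-0, but AT5G36790 Io001 gave 2079 of 2449 donor reads in MLB and 2575 of 3009 in Col-0, and it has an identical copy. The other 33 introns of this kind had donor shares of 37.6% in MLB and 34.4% in Col-0. Over all introns but AT5G36790 Io001 the donor share was 46.9% in MLB and 41.1% in Col-0. These are sums over events, and no test was made.

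The 2 shared events left out of the tests had these levels, each from its own table. AT3G66654 E007 (TAIR10, chromosome 3, 2088501 to 2088505) was at 0%, 8.91% and 5.88% in MLB and at 0% in all 3 Col-0 libraries. AT1G47278 E003 (chromosome 1, 17331228 to 17331277) was at 5.455%, 0% and 0% in MLB and 5.80%, 0% and 1.64% in Col-0.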
